A study of Mus musculus with 2 samples.

Results

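The 9 genes described here mark the transmitters of retinal amacrine cells (AC), the interneurons of the inner retina, and were chosen by name from the 25778 genes of the count table. They are *Gad1* and *Gad2*, *Slc6a9* and *Slc6a5*, *Slc32a1*, *Chat* and *Slc18a3*, *Th* and *Slc17a8*. All 9 were in the table. Their levels were taken in 1621 AC of 30943 cells and in the other named retinal cell types. The cells came from dissociated retinas of mice at 30 days of age (P30), profiled by droplet single-cell RNA sequencing. The Ptbp1-Ctrl library came from a Chx10-Cre mouse and the Ptbp1-KO library from a Chx10-Cre;Ptbp1lox/lox mouse. Both genotypes therefore carry the Chx10-Cre transgene, which drives a GFP-fused Cre recombinase broadly in retinal progenitors, and in the conditional allele Cre removes a floxed segment at the start of *Ptbp1* (its promoter with the first exon). There was 1 library per genotype, so genotype, animal and library cannot be told apart, and all intervals below are 95% intervals that cover counting error only.

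Most amacrine cells are inhibitory and release either GABA or glycine. GABA is made from glutamate by the 2 glutamate decarboxylases that *Gad1* and *Gad2* encode, whereas glycine is gathered from outside the cell by the transporters GlyT1 (*Slc6a9*) and GlyT2 (*Slc6a5*). The vesicular transporter VGAT (*Slc32a1*) loads either transmitter into synaptic vesicles. Smaller classes add a second system. Starburst amacrine cells make acetylcholine with choline acetyltransferase (*Chat*) and load it with the vesicular acetylcholine transporter (*Slc18a3*). Dopaminergic amacrine cells use tyrosine hydroxylase (*Th*), and a rare class uses the vesicular glutamate transporter VGLUT3 (*Slc17a8*).

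On the mm10 genome, *Gad2* (chr2:22622205-22693874, plus strand), *Gad1* (chr2:70553072-70602014, plus strand) and *Slc32a1* (chr2:158610767-158615748, plus strand) lie on the same chromosome. *Slc6a9* lies at chr4:117834506-117875198 on the plus strand and *Slc6a5* at chr7:49910146-49963856 on the plus strand. *Th* lies at chr7:142892752-142931128 and *Slc17a8* at chr10:89574020-89621253, both on the minus strand. *Chat* (chr14:32408203-32465989, minus strand) holds *Slc18a3* (chr14:32462438-32464850) inside an intron on the same strand, an arrangement in which reads from an unspliced *Chat* transcript could be counted for either gene. *Slc6a9* overlaps *Ccdc24*, *B4galt2* and *Gm17114* on the opposite strand, and *Gad1* overlaps *Gad1os*. Whether the counting used strand was not given in the sources used here, so reads of these overlapping stretches could not be assigned with certainty.

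The 250 bases before the annotated starts of the genes that sorted the AC are shown because these genes carried the results below. They are the plus-strand sequences of RefSeq on GRCm38.p6 at chr2:70561879-70562128 (*Gad1*), chr2:22622077-22622326 (*Gad2*), chr4:117835008-117835257 (the first of 3 *Slc6a9* starts) and chr2:158610508-158610757 (*Slc32a1*). Capitals mark matches to GCCNNNGGC, a site of AP-2 factors such as the amacrine regulators *Tfap2a* and *Tfap2b*, or to CAGCTG, an E-box. Both motifs read the same on either strand.
Gad1: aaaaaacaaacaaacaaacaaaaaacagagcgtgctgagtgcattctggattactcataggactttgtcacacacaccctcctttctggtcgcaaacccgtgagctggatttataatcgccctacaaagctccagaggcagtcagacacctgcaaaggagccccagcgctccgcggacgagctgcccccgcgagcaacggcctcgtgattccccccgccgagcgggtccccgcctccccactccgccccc
Gad2: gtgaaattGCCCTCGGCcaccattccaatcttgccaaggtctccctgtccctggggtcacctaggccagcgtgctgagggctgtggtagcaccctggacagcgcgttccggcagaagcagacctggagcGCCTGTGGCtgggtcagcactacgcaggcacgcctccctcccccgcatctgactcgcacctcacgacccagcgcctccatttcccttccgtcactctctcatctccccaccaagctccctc
Slc6a9: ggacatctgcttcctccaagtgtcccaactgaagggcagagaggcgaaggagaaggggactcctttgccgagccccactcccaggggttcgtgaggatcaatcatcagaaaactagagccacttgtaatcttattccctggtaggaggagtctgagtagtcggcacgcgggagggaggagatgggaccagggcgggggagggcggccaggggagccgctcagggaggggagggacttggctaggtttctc
Slc32a1: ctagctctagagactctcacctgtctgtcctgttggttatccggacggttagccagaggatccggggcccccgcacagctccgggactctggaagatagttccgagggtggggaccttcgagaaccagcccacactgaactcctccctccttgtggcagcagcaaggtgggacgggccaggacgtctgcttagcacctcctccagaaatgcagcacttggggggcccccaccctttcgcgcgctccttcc
The AP-2 type motif occurred 2 times before *Gad2* and was not in the windows before *Gad1*, *Slc6a9* or *Slc32a1*. Among the 9 genes it was found before *Gad2* and *Slc18a3*, and among all 32851 promoter windows of this length in 13.7%. CAGCTG was found before *Chat* alone, and in 13.0% of all windows. The GC content of the 13 start windows of the 9 genes ran from 43.6% to 66.0%, around a median of 52.4% for all windows.

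The Ptbp1-Ctrl library held 16421 cells with 32758836 unique molecular identifiers (UMIs, each counting one captured transcript), and the Ptbp1-KO library 14522 cells with 35328593 UMIs. A total of 63 cell barcodes occurred in both libraries. AC made up 676 cells with 1956373 UMIs in Ptbp1-Ctrl and 945 cells with 3857457 UMIs in Ptbp1-KO. Median depth was 2600.5 UMIs per AC of Ptbp1-Ctrl and 3928 per AC of Ptbp1-KO, a ratio of 1.51, so levels are given per 1000000 UMIs of the summed cells (CPM) and shares of cells at an equal depth. All 6 AC markers (*Pax6*, *Tfap2a*, *Tfap2b*, *Slc32a1*, *Gad1*, *Slc6a9*) were detected in the AC of each library. *Ptbp1* held 41 UMIs in the AC of Ptbp1-Ctrl and 2 UMIs in those of Ptbp1-KO (21.0 and 0.518 CPM). *Ptbp2*, its neuronal paralog, stood at 192 and 196 CPM.

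*Gad1* and *Gad2*, the GABA-synthesising enzymes, were both higher in the AC of Ptbp1-KO. *Gad1* was at 209 CPM (interval 189 to 230, 409 UMIs) in Ptbp1-Ctrl and at 267 CPM (251 to 284, 1031 UMIs) in Ptbp1-KO, giving a log2 ratio of 0.35 (0.19 to 0.52). *Gad2* was at 122 CPM (107 to 138, 238 UMIs) and 149 CPM (137 to 162, 576 UMIs), giving a log2 ratio of 0.30 (0.08 to 0.52). For both genes the counting interval of the ratio lay above 0. The UMIs came from a part of the cells, 104 of 676 and 195 of 945 AC for *Gad1* and 109 and 217 AC for *Gad2*. In Ptbp1-KO, 97.8% of the *Gad1* UMIs came from cells with 2 or more. The intervals treat UMIs as independent and do not cover which cells were captured. Markers of MG, cones and rods, all detected, were lower in the same Ptbp1-KO AC, with summed levels of 639 and 442 CPM for the 6 MG markers, 476 and 382 CPM for the 5 cone markers and 6787 and 6188 CPM for the 6 rod markers. The 7 BC markers summed to 281 and 282 CPM, and the part of these transcripts in the AC ratios was not tested. *Slc32a1*, which serves both transmitters, stood at 203 CPM (183 to 224, 397 UMIs) and 234 CPM (219 to 250, 904 UMIs), giving a log2 ratio of 0.21 (0.04 to 0.38).

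The glycine transporters differed less between the libraries. *Slc6a9* was at 610 CPM (576 to 645, 1193 UMIs) in Ptbp1-Ctrl and 653 CPM (628 to 679, 2519 UMIs) in Ptbp1-KO, with a log2 ratio of 0.10 (-0.0012 to 0.20). *Slc6a5* was at 46.0 CPM (37.0 to 56.5, 90 UMIs) and 45.9 CPM (39.4 to 53.2, 177 UMIs), with a log2 ratio of -0.0037 (-0.38 to 0.38). Both intervals included 0.

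The genes of the rarer transmitters had few UMIs. *Slc17a8* was at 18.4 CPM (12.9 to 25.5, 36 UMIs) in Ptbp1-Ctrl and 24.1 CPM (19.5 to 29.5, 93 UMIs) in Ptbp1-KO, giving a log2 ratio of 0.39 (-0.18 to 0.99). *Th* was at 2.56 CPM (0.83 to 5.96, 5 UMIs) and 5.18 CPM (3.17 to 8.01, 20 UMIs), giving a log2 ratio of 1.02 (-0.44 to 2.79). For *Chat* there were 0 UMIs among the control AC and 3 among the Ptbp1-KO AC, and for *Slc18a3* there were 1 and 5. At these counts neither the size nor the direction of a difference in *Th*, *Chat* or *Slc18a3* could be resolved.

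Of the 9 genes, 7 had at least 20 UMIs over both libraries. Of these, 1 (*Th*) was higher by at least 1.5-fold in Ptbp1-KO, against 6.72% of the 12999 genes with as many UMIs in AC, and 0 were lower by that fold, against 5.12%. The median log2 ratio of the 7 genes was 0.30, beside 0.0015 over all 12999 genes. *Th* rested on 5 and 20 UMIs, and its interval included 0.

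**Figure D1:**
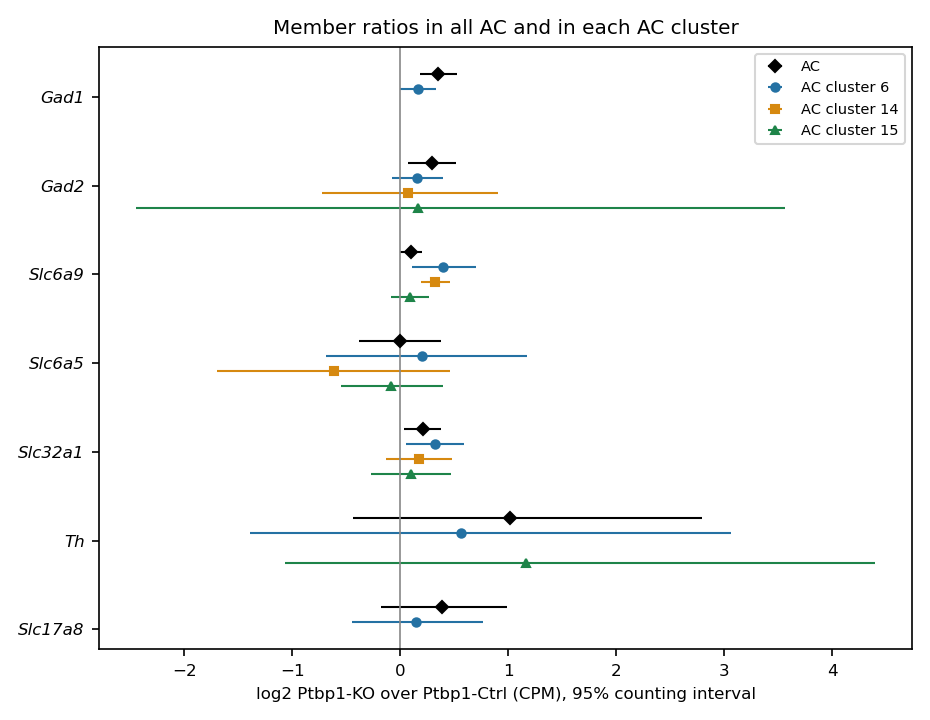
Log2 ratio of Ptbp1-KO over Ptbp1-Ctrl for the 7 genes with at least 20 UMIs in all AC and in AC clusters 6, 14 and 15, with exact counting intervals as bars; cluster values with fewer than 2 UMIs in a library are left out. *Gad1* stood at 0.35 in all AC and at 0.16 in cluster 6, and the intervals of *Th*, and of *Gad2* in cluster 15, were the widest.

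The AC lay in 3 clusters of the deposited cell table, which differed in transmitter genes. Cluster 6, which also holds horizontal cells (HC) and retinal ganglion cells (RGC), contained 293 AC of Ptbp1-Ctrl (43.3%) and 478 of Ptbp1-KO (50.6%). Cluster 14 contained 223 (33.0%) and 214 (22.6%), and cluster 15 contained 160 (23.7%) and 253 (26.8%). Because the clustering used the expression of these cells, the contrasts between clusters are descriptions.

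*Gad1* was in effect a cluster 6 gene, with 408 of its 409 AC UMIs in Ptbp1-Ctrl and 1030 of 1031 in Ptbp1-KO. Its level there was 479 CPM (434 to 528) in Ptbp1-Ctrl and 536 CPM (504 to 570) in Ptbp1-KO, and it had 0 UMIs in cluster 14 and 1 UMI per library in cluster 15. Set against 3 counts in cluster 14, *Gad1* was at least 107-fold higher in cluster 6 in Ptbp1-Ctrl and at least 173-fold higher in Ptbp1-KO. *Gad2* was less exclusive. It was at 250 and 279 CPM in cluster 6, at 34.3 CPM (21.8 to 51.5) and 36.2 CPM (25.2 to 50.3) in cluster 14, and at 4.61 and 5.17 CPM in cluster 15.

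*Slc6a9* was highest in cluster 14, then cluster 15, and lowest in cluster 6. In cluster 14 it was at 1028 CPM (953 to 1108) in Ptbp1-Ctrl and 1289 CPM (1218 to 1363) in Ptbp1-KO. In cluster 15 it was at 864 CPM (778 to 956) and 918 CPM (858 to 980), and in cluster 6 at 151 CPM (126 to 180) and 200 CPM (180 to 221). Its intervals in cluster 6 lay below those in the other clusters in each library. The log2 ratio of cluster 15 over cluster 14 was -0.25 (-0.44 to -0.07) in Ptbp1-Ctrl and -0.49 (-0.62 to -0.36) in Ptbp1-KO. *Slc6a5*, the second glycine transporter, was instead concentrated in cluster 15, at 134 CPM (101 to 173) and 126 CPM (105 to 151). In cluster 14 it was at 25.4 and 16.5 CPM and in cluster 6 at 17.6 and 20.3 CPM, neighbours whose intervals overlapped in each library. *Slc32a1* was spread evenly, at 189 and 236 CPM in cluster 6, 221 and 249 CPM in cluster 14 and 203 and 217 CPM in cluster 15, with no pair of clusters resolved in either library.

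The list for AII amacrine cells, a glycinergic class of the rod pathway (*Gjd2*, *Prox1*, *Dab1*, *Car2*, *Dner*), summed to 7462 and 7378 CPM in cluster 15. It summed to 2869 and 2867 CPM in cluster 14 and to 981 and 871 CPM in cluster 6. Outside AC it summed to 1835 and 1898 CPM in Müller glia, 1530 and 1700 CPM in bipolar cells and 1535 and 1634 CPM in HC. These sums lay above that of cluster 6, so the list is not specific to AII cells here. Cluster 14 also carried more transcripts of Müller glia (MG), whose 6 markers, all detected, summed to 1306 and 1093 CPM there, against 360 and 252 CPM in cluster 6 and 159 and 168 CPM in cluster 15. The part of this in the cluster 14 values was not tested.

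**Figure D2:**
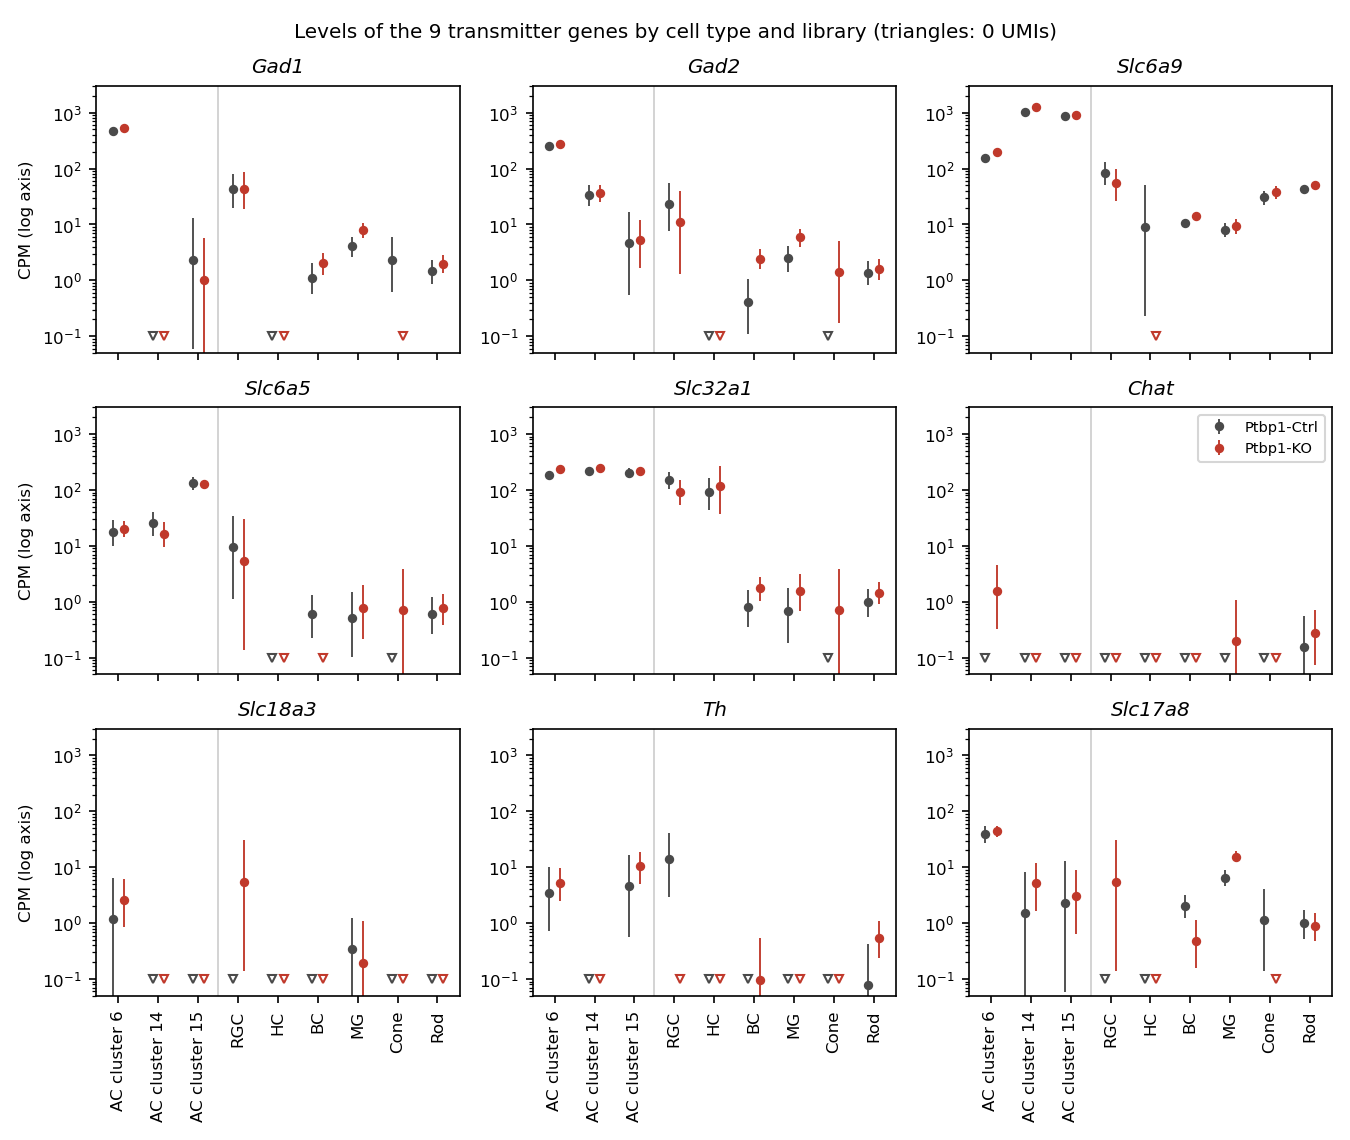
CPM on a log axis of each of the 9 genes by cell type and AC cluster, with Ptbp1-Ctrl and Ptbp1-KO drawn side by side and exact Poisson intervals as bars; open triangles at the foot of a panel mark 0 UMIs. *Gad1* is high in AC cluster 6 alone among the clusters, *Slc6a9* is highest in clusters 14 and 15, and *Slc32a1* is nearly level across the 3 clusters.

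Within clusters the differences between the libraries were smaller for *Gad1* and *Gad2* than in all AC, and for *Slc6a9* they were larger in clusters 6 and 14 but not in cluster 15. *Gad1* in cluster 6 had a log2 ratio of 0.16 (-0.0048 to 0.33) and *Gad2* of 0.16 (-0.07 to 0.39), and both intervals included 0. *Slc32a1* in cluster 6 had a log2 ratio of 0.32 (0.06 to 0.59). *Slc6a9* had log2 ratios of 0.40 (0.11 to 0.70) in cluster 6, 0.33 (0.19 to 0.46) in cluster 14 and 0.09 (-0.09 to 0.27) in cluster 15. Cluster 6, where *Gad1* and *Gad2* were high, held a larger share of the Ptbp1-KO AC, and the log2 ratio of *Gad1* was 0.16 when Ptbp1-KO clusters were weighted as in Ptbp1-Ctrl.

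Few cluster values passed 1.5-fold. In cluster 6, 0 of 6 genes with at least 20 UMIs were higher (9.07% of all genes there) and 0 lower (6.45%). In cluster 14, 0 of 4 were higher (8.29%) and 1 was lower (8.55%). That gene was *Slc6a5*, with 17 and 16 UMIs and a log2 ratio of -0.62 (-1.70 to 0.46). In cluster 15, 0 of 3 were higher (10.2%) and 0 lower (8.41%).

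Cells were then classed by the genes they contained after each cell had been thinned to 1000 UMIs, which left out 51 AC of Ptbp1-Ctrl and 53 of Ptbp1-KO. A cell with a UMI of *Gad1* or *Gad2* was counted as GABA, and a cell with a UMI of *Slc6a9* or *Slc6a5* as glycine. GABA-only cells were 77 of 625 AC (12.3%, exact Clopper-Pearson interval 9.85 to 15.2) in Ptbp1-Ctrl and 144 of 892 (16.1%, 13.8 to 18.7) in Ptbp1-KO. Glycine-only cells were 268 of 625 (42.9%, 39.0 to 46.9) and 379 of 892 (42.5%, 39.2 to 45.8). Glycine-only cells were thus the more frequent class in both libraries.

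The difference for GABA-only cells, Ptbp1-KO minus Ptbp1-Ctrl, was 3.82 percentage points (0.21 to 7.30), and that for glycine-only cells was -0.39 points (-5.45 to 4.64). The GABA-only difference was not stable to the depth setting, which also sets the cells that are kept. With cells thinned to 3000 UMIs, which left 260 of 676 and 593 of 945 AC, the shares were 27.7% and 24.3%, in the other direction. With all UMIs kept they were 14.3% and 16.6%. Weighting the clusters of Ptbp1-KO as in Ptbp1-Ctrl gave a difference of 1.17 points. The parts of the depth gap and of the cells left out in this share were not tested.

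AC with both kinds of gene were 1.76% (11 cells) of Ptbp1-Ctrl and 2.24% (20 cells) of Ptbp1-KO, a difference of 0.48 points (-1.09 to 1.91). AC with neither were 43.0% (269 cells) and 39.1% (349 cells), a difference of -3.91 points (-8.94 to 1.10). In rods, which use neither transmitter, 0.288% and 0.389% had a GABA gene and 3.76% and 4.71% a glycine gene at this depth, with medians before thinning of 1394 and 1639 UMIs against 2756 and 4106 in the AC. The AC shares of both kinds lay above this background in each library.

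**Figure D3:**
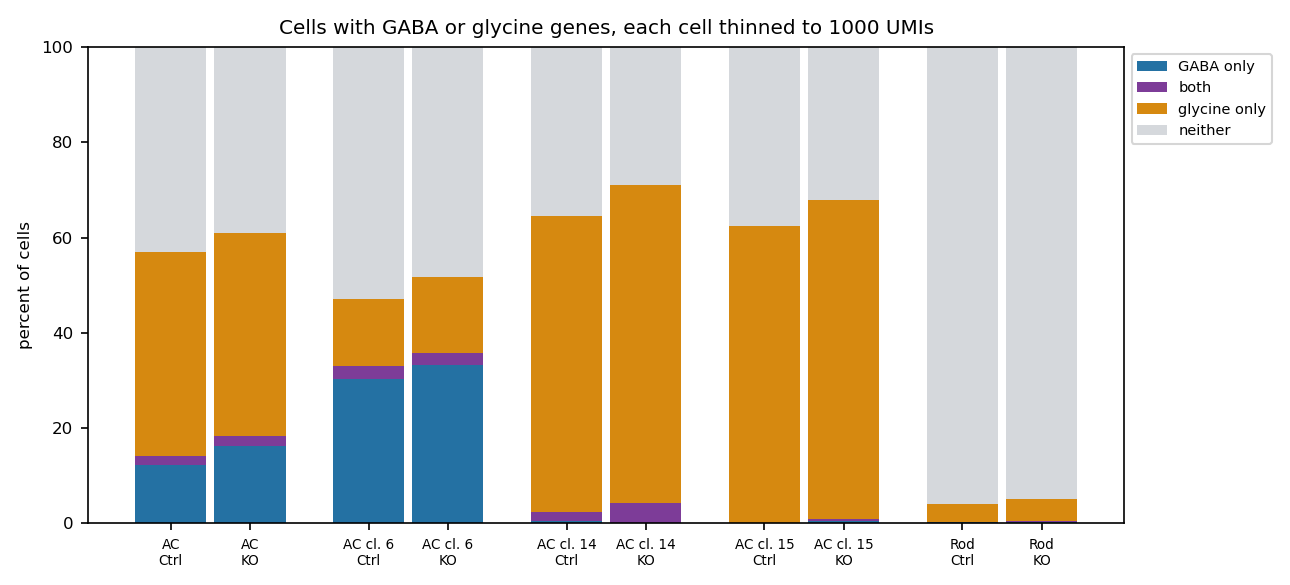
Percent of cells with GABA genes only, glycine genes only, both or neither, each cell thinned to 1000 UMIs, for all AC, the 3 AC clusters and rods in each library. GABA-only cells made up 30.3% and 33.3% of cluster 6 and at most 0.455% of clusters 14 and 15.

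By cluster, GABA-only cells were 30.3% (24.7 to 36.4) of cluster 6 in Ptbp1-Ctrl and 33.3% (28.9 to 38.01) in Ptbp1-KO. In cluster 14 they were 1 of 220 cells in Ptbp1-Ctrl and 0 of 214 in Ptbp1-KO, which allows up to 1.40% of cells in this class at this depth. In cluster 15 they were 0 of 154, which allows up to 1.95%, and 1 of 249. These limits, set at 3 counts, concern cells with a detected UMI and not cells that express the genes. Glycine-only cells were 62.3% and 66.8% of cluster 14, 62.3% and 67.1% of cluster 15, and 13.9% and 16.1% of cluster 6. The intervals of the 2 libraries overlapped in each of these cases.

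The share with neither gene set was 43.0% and 39.1% at 1000 UMIs and 10.0% and 9.78% at 3000 UMIs, where AC under 3000 UMIs were left out. In all AC, without thinning, it was 22.5% and 18.7%. With all UMIs kept, 116 of the 152 such AC of Ptbp1-Ctrl and 149 of the 177 of Ptbp1-KO lay in cluster 6. Their median depth was 1306 and 1465 UMIs there, against 4195 and 5955 in the GABA-only cells of the same cluster. Rod markers, all 6 detected, summed to 18818 and 20277 CPM in them, against 5406 and 4272 CPM in the GABA-only cells. *Pax6*, *Tfap2a* and *Tfap2b* together summed to 419 and 345 CPM in them and to 1156 and 1430 CPM in the GABA-only cells. In cluster 6 the cells with neither gene set were therefore shallower, higher in rod transcripts and lower in amacrine factors than the GABA-only cells. The part of these in the class was not tested. In Ptbp1-Ctrl, rod markers summed to 3973 CPM in such cells of cluster 14 and 4830 CPM in its glycine-only cells, and to 5054 and 5279 CPM in cluster 15. In cluster 15 of Ptbp1-KO the sums were 16749 and 4972 CPM.

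**Figure D4:**
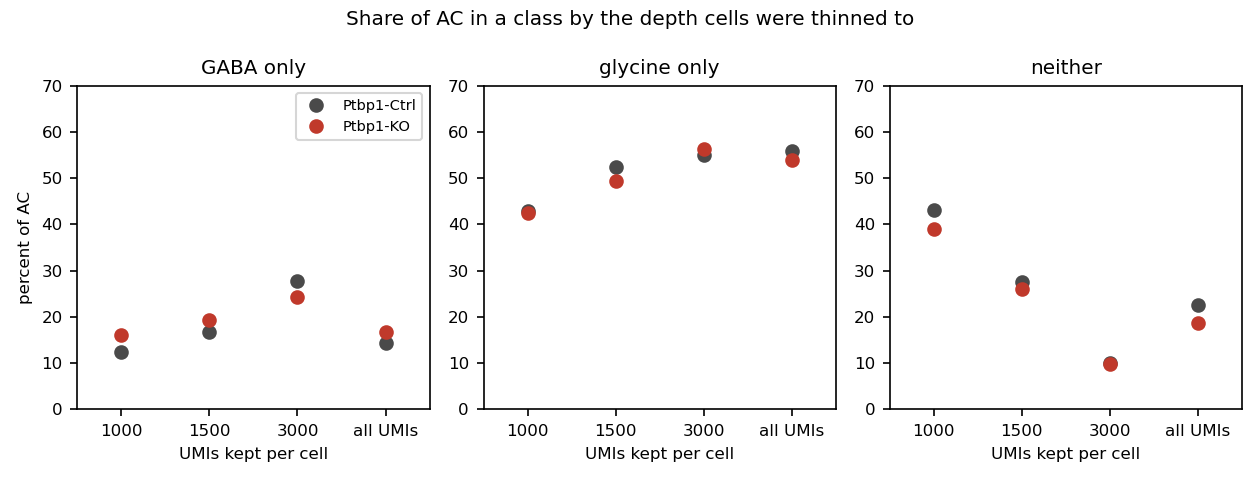
Percent of AC with GABA genes only, glycine genes only or neither at each depth, from cells thinned to 1000, 1500 and 3000 UMIs to all UMIs, for Ptbp1-Ctrl and Ptbp1-KO. The share of AC with neither gene set is 43.0% and 39.1% at 1000 UMIs, 10.0% and 9.78% at 3000 UMIs and 22.5% and 18.7% with all UMIs. Cells with fewer UMIs than a depth are left out at that depth. The order of the libraries in the GABA-only class turns at 3000 UMIs.

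The 2 decarboxylase genes occurred in the same cells. With all UMIs kept, *Gad2* was found in 67 of the 103 cluster 6 AC with *Gad1* in Ptbp1-Ctrl (65.0%) and in 153 of 194 in Ptbp1-KO (78.9%), against 10.0% and 10.2% of the AC there without *Gad1*. *Slc32a1* was found in 63.9% and 77.1% of cluster 6 AC with either *Gad* gene and in 18.1% and 25.5% of the others. *Slc6a9* showed the opposite order, in 7.77% and 14.4% of cells with *Gad1* and in 32.6% and 43.7% of cells without it. Cells with *Gad1* were deeper, at medians of 4545 and 5979.5 UMIs against 1513.5 and 2029. These shares were not taken at equal depth, and the part of depth in them was not tested.

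The *Gad2* of cluster 14 was of another kind. It was found in 21 of 223 AC of Ptbp1-Ctrl and 31 of 214 of Ptbp1-KO, with at most 2 UMIs per cell, and 0 of these cells had *Gad1*. All of them also had *Slc6a9*, which was found in 208 of 223 and 212 of 214 cells of that cluster. In cluster 15, *Slc6a9* was found in 82.7% and 92.3% of the cells with *Slc6a5* and in 80.6% and 84.0% of those without it. Most cells of cluster 15 thus had *Slc6a9*, with or without *Slc6a5*.

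Few AC held *Slc17a8*, 10 in Ptbp1-Ctrl and 19 in Ptbp1-KO, and cells with 2 or more of its UMIs were found in cluster 6 alone. In cluster 6, 8 AC of Ptbp1-Ctrl and 11 of Ptbp1-KO held its 34 and 85 UMIs, with up to 14 and 22 in a single cell, and 94.1% and 95.3% of these UMIs came from cells with at least 2. Clusters 14 and 15 together added 2 cells of Ptbp1-Ctrl and 8 of Ptbp1-KO, each with 1 UMI. The 6 and 7 cells of cluster 6 with at least 2 UMIs had 0 UMIs of *Gad1* and 0 of *Gad2*, whereas *Slc6a9* was found in 3 of 6 and 5 of 7, and *Slc32a1* in 3 of 6 and 7 of 7. At 1000 UMIs, 1.28% (8 of 625) and 1.35% (12 of 892) of AC had *Slc17a8*, against 0.136% and 0.0810% of rods. The difference between the libraries was 0.07 points (-1.29 to 1.24).

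The AC with a *Th* UMI were also few. They numbered 4 in Ptbp1-Ctrl, of which 2 lay in cluster 6 and 2 in cluster 15, and 10 in Ptbp1-KO, of which 3 lay in cluster 6 and 7 in cluster 15. All of those in cluster 6 had *Gad1* and none of them *Slc6a9*, whereas all of those in cluster 15 had *Slc6a9* and none of them a *Gad* gene. A single Ptbp1-KO cell of cluster 6 held 6 *Th* UMIs. None of the 14 AC had a UMI of *Slc18a2*, *Ddc* or *Slc6a3*, the vesicular transporter, decarboxylase and reuptake transporter of dopamine neurons. Among rods, 1 of 10058 cells of Ptbp1-Ctrl and 7 of 9301 of Ptbp1-KO had a *Th* UMI.

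Cholinergic genes were close to background. At 1000 UMIs, 0 of 625 AC of Ptbp1-Ctrl had *Chat* or *Slc18a3*, which allows a share of up to 0.48% of cells with such a UMI at this depth, and 2 of 892 AC of Ptbp1-KO (0.224%) had one, against 0.0339% and 0.0162% of rods. With all UMIs kept, 3 AC of Ptbp1-KO had *Chat*, and 1 and 4 AC had *Slc18a3*, all in cluster 6. The starburst list of 8 genes summed to 60.3 and 55.2 CPM in AC. *Chat* was at 0 in Ptbp1-Ctrl and *Fezf1* at 0 in Ptbp1-KO. Starburst cells were thus not resolved as a group at this depth.

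Outside AC the transmitter genes had distinct distributions. *Gad1* in RGC was at 42.2 CPM (19.3 to 80.2, 9 UMIs) in Ptbp1-Ctrl and 43.6 CPM (18.8 to 85.9, 8 UMIs) in Ptbp1-KO, below the AC. In MG it was at 4.06 and 7.87 CPM, in rods at 1.46 and 2.001 CPM and in bipolar cells (BC) at 1.12 and 2.05 CPM, with 4 and 0 UMIs in cones and 0 in HC. The order below RGC was MG above rods and BC in each library, whereas the intervals of rods and BC overlapped. *Slc32a1* was at 150 CPM (103 to 212) and 92.6 CPM (53.9 to 148) in RGC and at 90.3 CPM (10 UMIs) and 117 CPM (5 UMIs) in HC, which do not differ beyond counting error. In rods, cones, BC and MG it stood at 1.76 CPM or less. HC therefore carried the vesicular transporter with 0 UMIs of *Gad1* and *Gad2*, in 17 and 7 cells.

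*Slc6a9* was also found in photoreceptors, at a larger fraction of its AC level than *Gad1* or *Slc32a1*. In rods it was at 43.0 CPM (39.5 to 46.7, 561 UMIs) and 51.5 CPM (47.8 to 55.3, 746 UMIs), and in cones at 30.4 CPM (22.7 to 39.7) and 37.9 CPM (28.5 to 49.4). In BC it was at 10.4 and 14.1 CPM and in MG at 7.96 and 9.24 CPM, both below the photoreceptors in each library. Its rod level was 7.06% and 7.88% of its AC level. The corresponding shares were 0.697% and 0.749% for *Gad1*, and 0.491% and 0.618% for *Slc32a1*. The *Slc6a9* locus overlaps 3 genes of the opposite strand, and their part in the rod UMIs was not tested.

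In MG and BC several members were past 1.5-fold at low levels. In MG, 3 of the 4 genes with at least 20 UMIs were higher in Ptbp1-KO (*Gad1*, *Gad2* and *Slc17a8*), against 7.16% of all genes there, and 0 were lower, against 4.92%. In BC, 3 of 5 were higher (*Gad1*, *Gad2* and *Slc32a1*), against 6.22%, and 1 was lower (*Slc17a8*), against 3.64%. *Gad1* (11 and 21 UMIs) and *Slc32a1* (8 and 18 UMIs) in BC had intervals of the ratio that included 0. *Gad2* in BC went from 0.409 CPM (4 UMIs) to 2.44 CPM (25 UMIs), giving a log2 ratio of 2.58 (1.04 to 4.56). *Gad1* in MG had a log2 ratio of 0.95 (0.19 to 1.75) and *Gad2* in MG of 1.22 (0.28 to 2.22). In MG and BC the levels of *Gad1*, *Gad2* and *Slc32a1* were a few percent of those in AC or lower. *Slc17a8* stood at 35.0% and 64.4% of its AC level in MG and at 11.1% and 2.03% in BC. In the Ptbp1-KO library *Gad1* and *Gad2* were also higher in AC, and AC were 6.51% of all cells rather than 4.12%. In rods the log2 ratio was 0.46 (-0.43 to 1.37) for *Gad1* and 0.20 (-0.75 to 1.18) for *Gad2*. The part of free RNA in the MG and BC levels was not tested.

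Of the 4 members with at least 20 UMIs in MG, *Slc17a8* had the MG level closest to its AC level. In MG it was at 6.43 CPM (38 UMIs in 36 of 1720 cells) in Ptbp1-Ctrl and 15.5 CPM (79 UMIs in 71 of 1184 cells) in Ptbp1-KO, giving a log2 ratio of 1.27 (0.70 to 1.87). Of the 71 cells, 64 had a single UMI, unlike the AC of cluster 6. In MG cluster 4 the log2 ratio was 1.34 (0.71 to 2.003), on 31 and 70 UMIs, and in MG cluster 16 there were 4 and 6 UMIs. At 1000 UMIs the shares of MG with *Slc17a8* were 0.722% (0.373 to 1.26) and 0.938% (0.469 to 1.67), which overlapped. In BC it was at 2.04 CPM (20 UMIs) and 0.488 CPM (5 UMIs), giving a log2 ratio of -2.06 (-3.83 to -0.61). Rods of the same libraries were at 0.997 and 0.897 CPM.

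**Figure D5:**
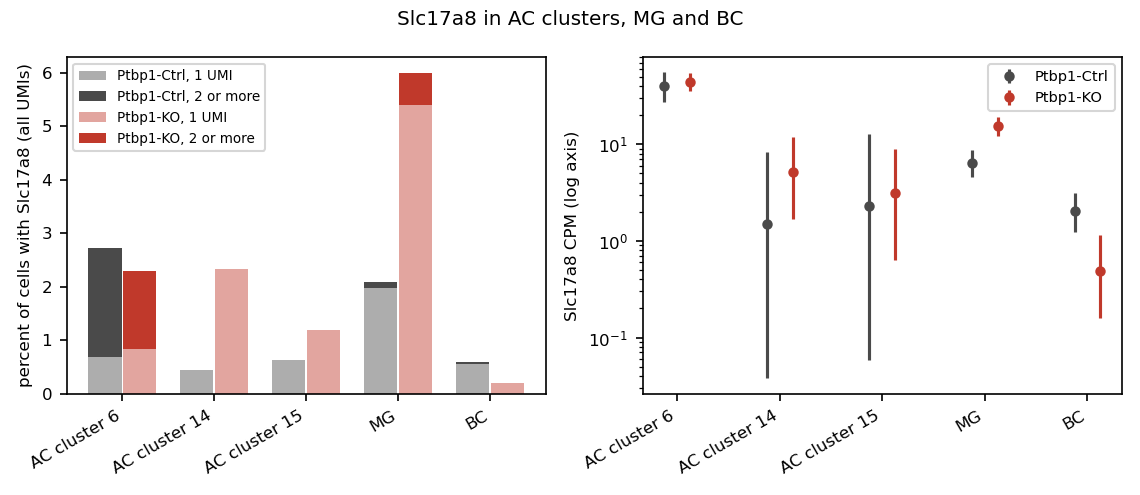
Left, percent of cells with *Slc17a8* in the AC clusters, MG and BC, split into cells with 1 UMI and with 2 or more, all UMIs kept; right, *Slc17a8* CPM on a log axis with exact Poisson intervals. Cells with 2 or more UMIs are the larger share in AC cluster 6, and MG stood at 6.43 CPM in the control and 15.5 CPM in the Ptbp1-KO library.

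Taken over all AC, genes that handle the same transmitters differed little. Among genes that handle GABA, the transporter gene *Slc6a11* (66.4 and 80.6 CPM), the GABA transaminase *Abat* (66.4 and 72.8 CPM) and *Aldh5a1* (18.4 and 23.6 CPM), which acts after it in GABA breakdown, were within 1.5-fold, and all had intervals of the ratio that included 0. Of the 6 glycine handling genes, 5 had enough UMIs, and 0 were higher and 1 was lower by 1.5-fold (6.72% and 5.12% of all genes in AC), with a median log2 ratio of 0.13. The lower gene was *Gldc*, the decarboxylase of the glycine cleavage system, with 14 and 15 UMIs and an interval that included 0. The other subunits of that system, *Gcsh* (41.9 and 45.9 CPM), *Amt* (36.8 and 30.8 CPM) and *Dld* (57.2 and 67.1 CPM), were within 1.5-fold in all AC. In cluster 15, 2 of 3 glycine handling genes (*Gcsh*, *Dld*) were higher by that fold and 0 lower (10.2% and 8.41% of all genes there). In cluster 14, 0 of 4 were higher and 1 lower (8.29% and 8.55%), and in cluster 6, 0 of 4 were past it (9.07% and 6.45%). In cluster 14, *Aldh5a1* was higher and *Slc6a11* lower by that fold, with intervals that included 0.

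Of the 10 monoamine and acetylcholine genes, 6 had enough UMIs, and 1 was higher and 1 lower by 1.5-fold (6.72% and 5.12% of all genes in AC). The choline transporter *Slc5a7* was higher, on 5 and 19 UMIs with an interval that included 0, and *Spr*, an enzyme of tetrahydrobiopterin synthesis, was lower, with a log2 ratio of -0.81 (-1.46 to -0.15). The median was -0.14, and 2 of the 6, *Spr* among them, had intervals of the ratio below 0. *Ache*, *Pts* and *Qdpr* were within 1.5-fold, at 50.6 and 47.2 CPM, 23.0 and 31.1 CPM, and 234 and 208 CPM. Of the vesicular glutamate transporters, *Slc17a6* and *Slc17a7*, 0 were past the fold in either direction (6.72% and 5.12% of all genes), and the median was -0.23. *Slc17a7*, a transporter of photoreceptors and BC, stood at 192 and 171 CPM in AC.

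Of the 10 genes of the neuropeptide list (9 neuropeptides and *Nos1*), 5 had enough UMIs. Of these, 1 was higher and 3 were lower by 1.5-fold, beside 6.72% and 5.12% of all genes in AC. *Vip* was higher in Ptbp1-KO, at 5.62 CPM (11 UMIs) and 24.6 CPM (95 UMIs), giving a log2 ratio of 2.13 (1.23 to 3.18). The 3 lower genes were *Npy*, *Cck* and *Pdyn*. *Npy* was at 33.7 and 10.9 CPM, giving a log2 ratio of -1.63 (-2.23 to -1.05), *Cck* at 21.0 and 12.7 CPM and *Pdyn* at 12.3 and 4.67 CPM. *Tac1*, the fifth, was at 41.4 and 34.0 CPM with an interval that included 0. The list's median was -0.72, beside 0.0015 for all genes.

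Of the 5 pan-amacrine genes, 0 were past 1.5-fold in either direction (6.72% and 5.12% of all genes in AC). The list includes the member *Slc32a1*, and its median of 0.21 is the log2 ratio of *Slc32a1* itself. *Tfap2b*, an AP-2 factor of amacrine cells, was at 299 and 439 CPM, giving a log2 ratio of 0.56 (0.42 to 0.70), and *Tfap2a* at 71.0 and 99.0 CPM, giving a log2 ratio of 0.48 (0.20 to 0.77). *Pax6* (577 and 619 CPM) and *Tfap2c* (82.3 and 81.4 CPM) had intervals that included 0. *Tfap2a* and *Tfap2b* thus stood, like *Gad1*, *Gad2* and *Slc32a1*, somewhat higher in Ptbp1-KO.

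The genes most like each member were taken from 13360 genes over 16 units of library by cell type or AC cluster, which share libraries and depth, by Pearson's r of log2(CPM + 10). *Gad1* was most like *Ripor2* (0.992), *Cxcl14* (0.991) and *Kcnip1* (0.981). *Gad2* was most like *Homer2* (0.949), *Cdh22* (0.941) and *Jph4* (0.921). *Slc6a9* was most like *Zfp385c* (0.964), *Myo16* (0.959) and *Rbfox1* (0.958). Like the members they follow, these genes differed between cluster 6 and the other AC clusters. *Slc6a5* was most like *Calb1* (0.983), which was at 325 and 387 CPM in cluster 15 and at 52.7 CPM or less in the other AC clusters, then *Kcnq3* (0.969) and *Ints6l* (0.965). *Slc32a1* was most like the neuronal RNA-binding genes *Elavl4* (0.990) and *Elavl3* (0.984), and *Fut9* (0.969). *Slc17a8* was most like the receptor gene *Kit* (0.959), *Stxbp6* (0.925) and *Steap3* (0.923), all mostly in cluster 6.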

How the data were processed

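Single-cell RNA-seq libraries (10x Genomics) of retinas from P30 mice were used, 1 mouse and 1 library per genotype, with cells assigned to libraries by the sample column of the cell table. The authors aligned reads to mm10 with Cell Ranger 7.0.1, filtered cells in Seurat 4 and named cell types from markers. The gene annotation, strand setting and use of intronic reads were not given in the sources used here. The deposited table holds raw UMI counts without normalization, and the authors' cell table the percent of mitochondrial UMIs, cluster numbers and type names, used as deposited. A further 3 value columns of the cell table were not used.

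Counts were summed per library, cell type and cluster and expressed as CPM with exact Poisson intervals, and ratios have exact conditional binomial intervals. Both kinds treat UMIs as independent and do not cover differences between cells, so they are too narrow where UMIs gather in few cells. With 1 library per genotype no test between genotypes was run. Shares have Clopper-Pearson intervals, and their differences Newcombe intervals. Cells were thinned to 1000 UMIs (seed 7) and shallower cells left out. A count of 0 was given a limit of 3 counts. Computation used Python 3.11.15, numpy 2.4.6, pandas 2.3.3, scipy 1.17.1 and matplotlib 3.10.9, and was tested on simulated data. No doublet caller was run, and leaving out the 10% of AC with most rod, cone, BC and MG marker UMIs is the alternative.

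The 9 members and the gene lists were chosen with earlier results of these data known. Named genes are the members, list genes (by name mainly those with at least 100 UMIs in AC, and those past 1.5-fold), *Ptbp1* and *Ptbp2*, and the 3 genes most like each member with at least 100 UMIs in AC. *Gldc*, *Slc5a7*, *Spr*, *Cck*, *Pdyn*, *Slc17a6* and *Nos1*, with fewer UMIs, were named after their values were seen. A list gene of GABA handling, and the counts that include it, are not reported here. Gene positions come from GENCODE and promoters from RefSeq. Alternatives were the scaling, cell and cluster weighting, rod background, depth, detection limit, class genes, fold and UMI minimum, mixed cells and the AC of cluster 6.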

Additional observations from a re-analysis of the deposited data

Results flagged for a closer look

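*Slc17a8* differed between the libraries in opposite directions in MG and BC, which is why it is listed here. The log2 ratio of Ptbp1-KO over Ptbp1-Ctrl was 1.27 in MG (38 and 79 UMIs) and -2.06 in BC (20 and 5 UMIs). There was 1 library per genotype, and whether MG and BC differ was not tested. The median depth per cell in Ptbp1-KO was 1.25 times that of Ptbp1-Ctrl in MG and 1.37 times in BC.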

How the results depend on the processing

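Over 48 recomputed ratios of single members in AC, 43 stayed within the counting interval of the reported ratio, 3 lay outside it and 2 reversed. The reversals came with the AC of cluster 6 left out, where *Gad1* (2 UMIs) had a log2 ratio of -0.81 and *Gad2* -0.13. Outside the interval lay *Gad1* (0.16) and *Slc6a9* (0.26) with Ptbp1-KO clusters weighted as in Ptbp1-Ctrl, and *Slc17a8* without cluster 6 (1.19). The median log2 ratio of the members ranged from 0.13 to 0.36, and median ratio scaling shifted all ratios by 0.01. With a minimum of 1 UMI, 2 members were higher by 1.5-fold, *Slc18a3* being added on 1 and 5 UMIs. The difference in GABA-only cells reversed to -0.0514 points without cluster 6 and to -3.41 points with cells thinned to 3000 UMIs, a depth chosen after seeing the data. Shallower cells were left out at that depth. The glycine-only difference was 4.66 points without cluster 6. The difference in cells with both was 3.55 points with no thinning, 2.08 at 1500 UMIs and 2.30 at 3000 UMIs. Leaving out cluster 6 removes nearly all *Gad1* by its construction, and for the other changes the cause was not tested. *Th* could not be computed on thinned cells, where Ptbp1-Ctrl had 0 UMIs. No paired analysis was possible because there is 1 library per genotype, and no library could be left out in turn. *Chat*, *Slc18a3* and *Th* had the fewest UMIs of the members in AC, and the median depth of AC differed by 1.51 times between the libraries.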
